A study of Sus scrofa with 16 samples.

Results

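Known miRNAs in the ovaries of high fecundity sows were compared between the luteal phase (LH, day 14, with day 1 the first day of estrus) and the follicular phase (FH, day 20). They were the entries of the deposited small RNA count table that carried a pig miRNA name, 216 of 1940 entries, and the others were predictions. The animals were Canadian Large White sows whose ovaries were taken at slaughter, with 4 sows in LH and 4 in FH, 8 of the 16 libraries of the series. Each sow gave 1 library of total ovarian RNA, so the LH and FH values came from different animals and phase was never followed within a sow. High fecundity described the sows' records of piglets born and not a single allele. The low fecundity groups, LL in the luteal phase and FL in the follicular phase, also held 4 sows each and served only as a second, separate set of animals. The comparison asks which ovarian miRNAs differ between the phases in highly fecund sows.

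MicroRNAs are short RNAs that guide Argonaute proteins to messenger RNAs and lower their stability or translation. In the luteal phase the pig ovary is filled by corpora lutea, which arise from granulosa and theca cells after ovulation and make progesterone. In the follicular phase the corpora lutea have regressed and growing follicles make estradiol. A whole ovary also holds stroma, vessels with smooth muscle, blood cells and nerves, and fewer cells of a type cannot be told apart from less of a miRNA per cell in such samples.

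Total counts ran from 14954411 to 24396229 per LH library and from 13221020 to 37194836 per FH library, and known miRNAs took 98.2 to 99.2% of them. Levels are given as CPM, a library's counts relative to its total after scaling by edgeR's TMM factors, and these factors lay between 0.73 in FH2 and 1.15 in LH1. The limit for a listed 0, taken as 3 counts, was 0.08 to 0.311 CPM by library and covers counting error only. Across the 216 known miRNAs, Pearson r of log2(CPM + 1) was 0.932 to 0.966 between LH sows, 0.943 to 0.987 between FH sows and 0.905 to 0.956 between a sow of each. miR-202-5p, a miRNA of the gonads, was found in every library, at 2380, 1052, 2354 and 1008 CPM in LH and 951, 246, 1193 and 362 CPM in FH. The labelled phases were not checked against markers of luteal cells, since none was among the miRNAs listed for that purpose. LH4 stood apart from the other LH libraries in miRNAs of epithelium, and FH2 held the highest levels of several muscle miRNAs. Many calls that turn on either library are given with and without it, though not every such call is named.

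LH and FH were compared with edgeR's quasi-likelihood test over the 323 entries with enough counts for its filter, 189 of them known. A miRNA was called when its unadjusted P was under 0.05 and its log2 fold change, LH over FH, was at least 1 in size. By this rule 26 of the 189 known miRNAs were called (13.8%), against 12.4% of all entries tested. Of these, 20 were higher in LH (10.6%, against 9.6% of all entries) and 6 were lower in LH (3.17%, against 2.79%). The known miRNAs were thus called about as often as the whole table. After Benjamini-Hochberg adjustment 2 known miRNAs passed 0.05 in edgeR, miR-142-5p and miR-497, both lower in LH, where 0.929% of all entries passed. The values of the LH and FH sows did not overlap for 16 of the 189 (8.47%), against 10.8% of all entries, and 11 of these 16 were among the called miRNAs. The median log2 fold change was 0.20 over the known miRNAs and 0.23 over all entries tested, with 114 known miRNAs above 0 and 75 below. With the median-of-ratios scaling of DESeq2 the known median moved to 0.09 and the calls to 14 higher and 9 lower, and with library size only to 0.40 and to 26 higher and 5 lower. Directions below are therefore relative to the TMM scale.

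**Figure D1:**
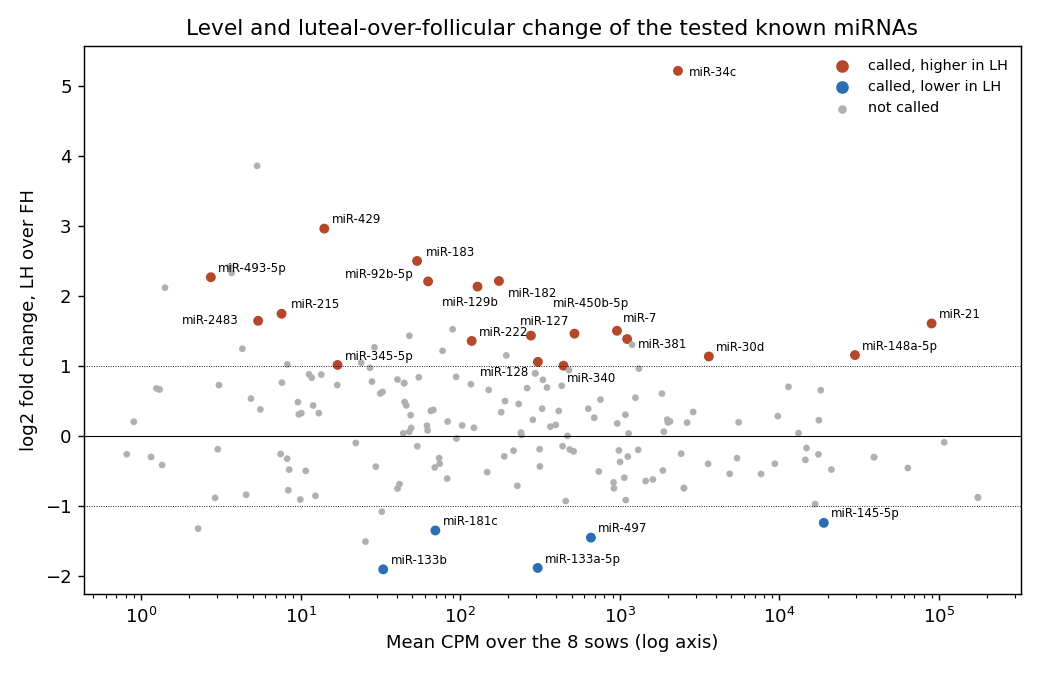
Mean CPM over the 8 sows (log axis) against the log2 fold change, LH over FH, for 184 tested known miRNAs, with called miRNAs named and the dotted lines at a log2 fold change of 1 and -1. The 5 tested entries that were 0 in some libraries and above 10 CPM in every other are not drawn, among them miR-142-5p. Called miRNAs higher in LH run from miR-493-5p near the lowest levels to miR-21 among the highest, and miR-34c, whose level came from LH4, has the highest value drawn.

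The highest-ranked increase was in miR-30d, a member of the widely expressed miR-30 family. It stood at 5341, 3746, 6498 and 4253 CPM in the LH sows and at 2552, 2254, 2192 and 2037 CPM in the FH sows. The lowest LH sow was thus above the highest FH sow. The mean was 4959 ± 1223 CPM in LH and 2259 ± 216 CPM in FH (SD, n = 4), a log2 fold change of 1.14 (SE 0.22) with an edgeR adjusted p of 0.0625. The other 4 miR-30 family members, which share its seed, were not called and lay between -0.40 and 0.23, so the family's summed level of 13155 to 23002 CPM in LH overlapped the 12970 to 15033 CPM in FH. Without LH3 the log2 fold change of miR-30d was 0.79 and the fold limit was missed.

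miR-7, a miRNA known from pancreatic islets and neuroendocrine cells that targets the EGF receptor, was at 1165, 1187, 2407 and 910.1 CPM in LH and at 641, 384, 466 and 511 CPM in FH. Each LH sow again exceeded each FH sow, with LH3 highest. The log2 fold change was 1.5 (SE 0.35, edgeR adjusted p = 0.169), and 0.95 without LH3. miR-148a-5p carries the name of an arm of a miRNA gene whose other arm represses the LDL receptor. How reads were assigned to arms is not given, so the arm measured cannot be told. The miR-148a-5p entry was among the 10 most abundant entries. Its levels of 46711, 31862, 61883 and 23651 CPM in LH lay above the 16382, 16493, 21600 and 19239 CPM of FH. LH4 came closest to the FH sows. The log2 fold change was 1.16 (SE 0.30, edgeR adjusted p = 0.239) and fell under the limit, to 0.69, without LH3. Of its relatives, miR-148b-5p had a log2 fold change of 0.96 (edgeR adjusted p = 0.24), in the same direction and just under the fold limit, and miR-152 one of -0.32. The differences between these members were not tested.

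miR-128, best known from neurons, was at 585, 499.5, 254.5 and 315 CPM in LH and at 200.5, 153, 202 and 239.5 CPM in FH. The groups did not overlap, and LH3 came close to FH4. The log2 fold change was 1.06 (SE 0.33, edgeR adjusted p = 0.239), with values under 1 when LH1 (0.78), LH2 (0.97) or FH2 (0.95) was left out. The call was lost in 9 of 22 alternatives in all. The low-level miR-2483 ran from 4.43 to 13.4 CPM in LH and from 1.66 to 3.39 CPM in FH, without overlap, a log2 fold change of 1.64 (SE 0.54). Without LH3 its value was 1.09 and the call was lost. miR-222, which together with miR-221 represses the cell cycle inhibitor p27 and is prominent in endothelium, was at 257, 88.3, 172 and 161 CPM in LH and 91.7, 64.1, 74.7 and 34.3 CPM in FH. LH2 fell just below FH1, so the groups overlapped. Its log2 fold change was 1.36 (SE 0.43, edgeR adjusted p = 0.239), and the call was kept without any 1 sow.

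The imprinted DLK1-DIO3 locus holds a large miRNA cluster expressed from the maternal chromosome. Of its 7 members in the list, 6 were tested, 5 had a positive log2 fold change, and 3 were called higher in LH, where 9.6% of all entries were, with a list median of 1.06 against 0.23 over all entries. miR-493-5p was scarce, with 7.28, 2.37, 6.01 and 2.47 CPM in LH and 1.59, 0.519, 1.10 and 0.533 CPM in FH. The groups did not overlap, and the log2 fold change was 2.27 (SE 0.67, edgeR adjusted p = 0.239). miR-381 was at 2612, 936, 1958 and 914 CPM in LH and at 1012, 564, 542 and 343 CPM in FH. LH2 and LH4 lay below FH1, so these groups overlapped, and the log2 fold change was 1.38 (SE 0.47). miR-127, at 677, 212, 482.5 and 245 CPM in LH and 274, 126, 121.5 and 76.9 CPM in FH, also had LH1 and LH3 high in LH and FH1 high in FH. Its log2 fold change was 1.43 (SE 0.53). Leaving out LH1 or LH3 ended the calls of miR-381 (1.02 and 1.05) and of miR-127 (1.04 and 1.11), by P alone, and FH2, FH3 or FH4 also ended that of miR-127. The members not called, miR-136, miR-432-5p and miR-376c, had log2 fold changes of 0.73, 0.73 and -0.19, and miR-376a-5p was under 0.5 CPM in every sow and not tested.

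miR-182 and miR-183 come from a single transcript, and the cluster is known for repressing FOXO1. miR-182 was at 264, 62.6, 649 and 174 CPM in LH and at 116, 28.1, 61.8 and 41.7 CPM in FH, and miR-183 at 82.4, 6.24, 205 and 70.6 CPM in LH and at 36.9, 7.68, 9.82 and 10.02 CPM in FH. For both, LH3 was the highest sow and FH1 the highest FH sow, and LH2 lay inside the FH range or below it. Both were called, at log2 fold changes of 2.21 (SE 0.76) and 2.50 (SE 0.98), with edgeR adjusted p of 0.239 and 0.271. Without LH3 neither was called, at 1.21 and 1.5, again by P alone. miR-183 was also lost without LH1, FH2, FH3 or FH4.

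miR-21, a miRNA that luteinizing hormone induces in granulosa cells and that protects cells from apoptosis, varied widely among the LH sows. It was at 157084, 25349, 268118 and 90178 CPM in LH, and at 76492, 30923, 46781 and 23422 CPM in FH. LH1, LH3 and LH4 exceeded each FH sow, while LH2 lay below FH2. Its log2 fold change of 1.61 (SE 0.68) was just past the threshold for P, with an edgeR adjusted p of 0.307, and 6 of the 8 exclusions of a sow ended the call (LH1, LH3, LH4, FH2, FH3 and FH4), with 0.81 without LH3 as the lowest value. miR-132 and miR-212, a pair from a single transcript that gonadotropins also induce, were not called with all 8 sows in the fit. miR-132 was at 164, 31.5, 101 and 60.6 CPM in LH and 213, 33.0, 34.8 and 28.2 CPM in FH (log2 fold change 0.21), so that its highest value was in an FH sow. FH1 likewise held the most miR-212, 66.8 CPM against 3.91 to 33.3 CPM in LH. Over the 8 exclusions of a sow miR-132 ran from -0.30 to 1.49 and was called without FH1. miR-212 ran from -0.62 to 1.38 and was called in 0 of them. The granulosa and gonadal list, miR-202-5p, miR-224, miR-378, miR-320 and the untested miR-383, had 0 called members of 4 tested and a median of 0.04, which was -0.09 under the median-of-ratios scaling. miR-202-5p had the largest log2 fold change in it, 1.3 (edgeR adjusted p = 0.315), and passed the rule without LH2, LH4 (1.41) or FH3.

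Several further calls rested on few sows. miR-215 was at 15.1, 3.16, 6.82 and 21.7 CPM in LH and 2.81 to 4.13 CPM in FH, a log2 fold change of 1.75 (SE 0.62), and was not called without LH1, LH4, FH1 or FH2 (1.08 without LH4). miR-194a and miR-194b-5p, which belong with miR-215 and are abundant in intestine and liver, were not called at 1.22 and 2.33. miR-194a was at 48.9, 24.2, 30.8 and 329 CPM in LH and 41.2 to 54.4 CPM in FH, so that its value came from LH4, and it was at -0.58 without that sow. miR-450b-5p was at 809, 612, 1335 and 291 CPM in LH and 290.2, 118, 273 and 426 CPM in FH, a log2 fold change of 1.46 (SE 0.54), and was not called without LH1, LH3, FH1, FH2 or FH3 (0.84 without LH3). The other 3 members of its X-linked cluster, miR-450a, miR-450c-5p and miR-542-5p, were not called and lay at 0.69, 0.94 and 0.39. Without LH4, miR-450c-5p passed the rule at 1.03. miR-340 (1.00) and miR-345-5p (1.01) sat at the fold limit and lost the call without LH3 (0.48 and 0.77) and in 4 and 5 other exclusions. These last 2 and miR-92b-5p were outside the naming rule and were named after their values were seen. miR-129b was at 573, 33.2, 55.2 and 174 CPM in LH and 27.8 to 79.3 CPM in FH, so that its call at 2.13 (SE 0.91) came from LH1 and LH4, and it was lost without LH1 (0.80), LH4, FH1, FH3 or FH4.

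**Figure D2:**
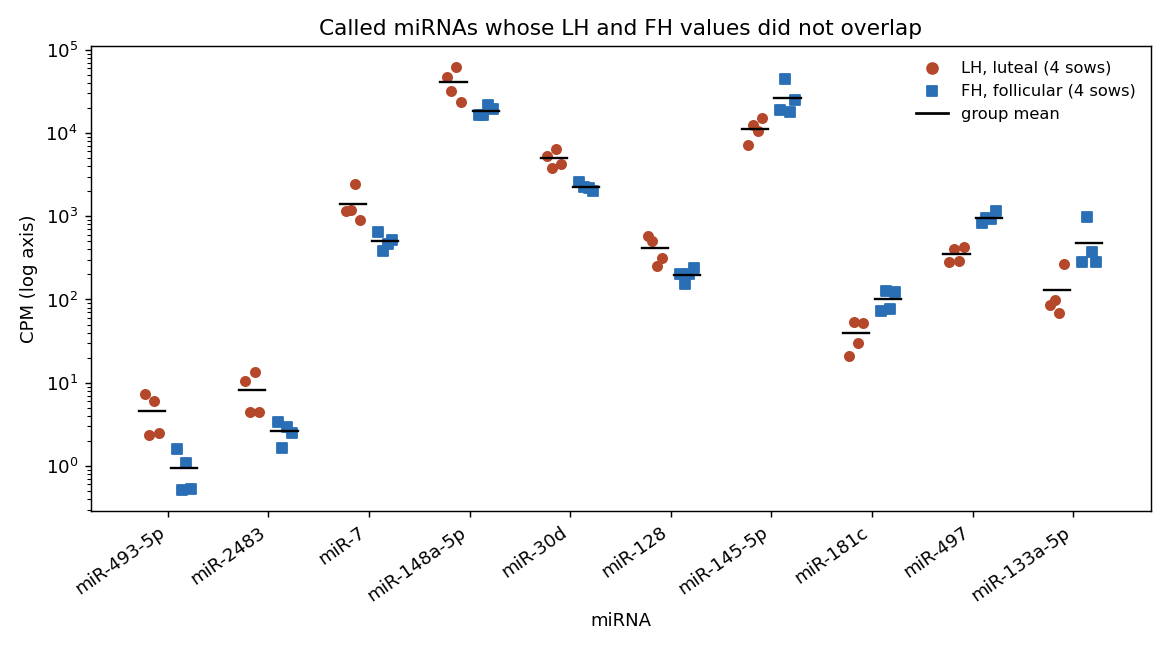
CPM (log axis) of 10 called miRNAs in each sow, with circles for the 4 LH sows, squares for the 4 FH sows and a bar at each group's mean. These are the called miRNAs without overlap between the groups, other than miR-142-5p, which was 0 in LH, and the 6 on the left were higher and the 4 on the right lower in LH.

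Among the decreases, miR-497 had the smallest unadjusted P after miR-142-5p. It was at 281, 408, 290.1 and 431 CPM in the LH sows and at 826, 951, 938 and 1144 CPM in the FH sows. The highest LH sow lay well below the lowest FH sow. The mean was 353 ± 78.1 CPM in LH and 965 ± 132 CPM in FH (SD, n = 4), a log2 fold change of -1.45 (SE 0.24) with an edgeR adjusted p of 0.0297. By P and fold it remained called without any 1 sow, at -1.67 to -1.35, but its edgeR adjusted p was above 0.05 in each of the 8 exclusions, from 0.0658 to 0.2. miR-497 belongs to the miR-15 and miR-16 family, which restrains the cell cycle through cyclins. Of the other 4 members, miR-195, which shares its transcript, had a log2 fold change of -0.37, miR-15a -0.44, miR-16 -0.19 and miR-15b 0.44, and none was called.

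miR-145-5p and miR-143, from a shared transcript that marks smooth muscle and stroma, were both lower on average in LH. miR-145-5p was at 7219, 12393, 10493 and 14985 CPM in LH and at 19109, 45107, 17682 and 24714 CPM in FH, without overlap, and FH2 was far above the other FH sows. Its log2 fold change was -1.24 (SE 0.36, edgeR adjusted p = 0.239) and -0.86 without FH2, under the fold limit. The miR-143-3p and miR-143-5p entries carried identical counts in every library and are a single measurement. They were the most abundant known entries, at 96259, 98433, 136919 and 162512 CPM in LH and 173887, 363722, 210415 and 160182 CPM in FH. LH4 lay just above FH4, and the log2 fold change of -0.88 (SE 0.31, edgeR adjusted p = 0.239) was under the fold limit. Without LH4 it was -1.16 and past the rule, as it also was without LH3 or FH4, and without FH2 it was -0.56. Of the 6 entries of the stroma and smooth muscle list all were tested and had negative values, with a median of -0.74, which was -0.50 by library size only and -0.86 by the median-of-ratios scaling, and 1 was called. The summed CPM of the list, with the identical entries counted under both names, was 267755 to 395461 in LH and 433616 to 852454 in FH, without overlap. The nearly identical miR-199a-5p and miR-199b-5p entries were at -0.30, and miR-214 at -0.60 (edgeR adjusted p = 0.311).

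The muscle miRNAs miR-133a-5p and miR-133b were called lower in LH, at log2 fold changes of -1.89 (SE 0.61) and -1.91 (SE 0.68), with edgeR adjusted p of 0.239 for each. miR-133a-5p was at 86.7, 98.8, 69.1 and 266 CPM in LH and at 278.5, 987, 376 and 281 CPM in FH. LH4 almost reached FH1, and FH2 was the highest sow. miR-133b was at 7.51, 6.72, 8.5 and 32.7 CPM in LH and 31.8, 98.1, 43.9 and 33.9 CPM in FH, with LH4 inside the FH range. Without LH4 they stood at -2.66 and -2.93. miR-133a-5p was still called without FH2, at -1.27, while miR-133b was not called without LH2, LH3 or FH2 (-1.65, -1.88 and -1.42). miR-1, which shares a transcript with miR-133a and is the most abundant muscle miRNA here, had a log2 fold change of 0.06. The other tested muscle markers, miR-206 and miR-499-5p, were at -0.86 (-1.73 without LH4, past the rule) and 0.37, and miR-208b was at 0 in all but LH4. The summed level of the 6 markers of skeletal and heart muscle was 1827 to 2715 CPM in LH and 1564 to 3913 CPM in FH, and the part of muscle tissue in these results was not tested.

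miR-181c, of a family known from lymphocyte development, was at 20.8, 53.9, 29.98 and 52.5 CPM in LH and 72.9, 128, 77.1 and 123 CPM in FH. The groups did not overlap, the log2 fold change was -1.35 (SE 0.41, edgeR adjusted p = 0.239), and the call was kept without any 1 sow. The other 3 members of the family were negative and not called, from -0.62 for miR-181a to -0.15 for miR-181b.

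miR-142-5p, a miRNA of blood-forming cells, was listed at 0 in all 4 LH libraries and at 167, 154.5, 179 and 109 CPM in the 4 FH libraries, an edgeR adjusted p of 0.000716, which was at most 0.0144 with any 1 sow left out and reached 0.239 with the replicate number as a block. Against the limit of 3 counts over the LH group, 0.0338 CPM, the listed FH level was at least 4513-fold higher. This bound covers counting error only and not how reads were assigned to entries. The same entry was also 0 in LL2 and FL1, and hence in 6 of the 16 libraries, and between 249 and 521 CPM in the other low fecundity sows. The other leukocyte markers were present throughout, and their 4 log2 fold changes ran from -0.75 for miR-146a-5p (edgeR adjusted p = 0.307) to 0.68 for miR-146b. miR-146a-5p passed the rule without LH3 (-1.06). The summed level of the 5 leukocyte markers was 1021 to 1785 CPM in LH and 1445 to 2082 CPM in FH. In all, 9 known entries were 0 in at least 1 of the 8 libraries and above 10 CPM in every other. They included miR-99b, which was 0 in LH and FH1 and at 921 to 1302 CPM in the other FH sows, miR-218-5p, which was 0 in LH2, LH3, FH2 and FH3 and at 287 to 751 CPM elsewhere, and miR-361-5p, which was 0 in 3 LH sows and 1 FH sow. Some of these zeros fell where a like-named entry held counts. The miR-218 entry had 7546, 8349, 4076 and 5402 counts in LH2, LH3, FH2 and FH3, and 12868 against 12900 for miR-218-5p in LH1. miR-361-3p had 5121, 3549 and 5533 counts in LH2, LH3 and FH4, where miR-361-5p was 0, and both were 0 in LH4. Of the 9, miR-142-5p was the only entry whose zeros divided LH from FH, and the cause of the zeros was not tested.

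LH4 held high levels of 2 of the 3 epithelial markers. miR-34c, a miRNA of ciliated epithelium and germ cells, was at 46.2, 35.7, 99.6 and 17828 CPM in LH1 to LH4 and at 68.5, 179.9, 133 and 104 CPM in FH1 to FH4. LH4 alone stood far above the rest, and the other 3 LH sows lay around and below the FH sows. The fitted log2 fold change of 5.21 (SE 2.13) became -1.12 without LH4, a reversal. miR-429, of the epithelial miR-200 family, was at 86.1 CPM in LH4 and 1.48 to 9.21 CPM in the other 7 sows. Its log2 fold change of 2.96 (SE 1.26) was 0.41 without LH4. For miR-92b-5p, at 322 CPM in LH4 and 16.8 to 35.7 CPM elsewhere, 2.21 (SE 0.90) became 0.35. Leaving out any FH sow also ended the calls of all 3, as did LH3 for miR-429. The third epithelial marker, miR-205, was at 8.60 to 44.2 CPM in LH and 26.5 to 55.5 CPM in FH (log2 fold change -1.08, edgeR adjusted p = 0.38), and without LH4 it was called at -1.91. The summed epithelial markers were 17959 CPM in LH4, 54.5 to 117 CPM in the other LH sows and 96.5 to 231.5 CPM in FH. The share of epithelium in the LH4 sample was not tested. Without LH4, 31 known miRNAs were called, 15 higher and 16 lower in LH, in place of 20 and 6, and 18 of the 26 were among them. With LH4 and FH2 both left out, 15 were called, 8 higher and 7 lower.

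Markers of other tissues gave no call apart from those already described. The erythrocyte miRNAs miR-144 and miR-486 had log2 fold changes of 0.78 and 0.97, with a summed level of 30.8 to 161 CPM in LH and 23.6 to 58.1 CPM in FH, highest in LH3. The liver miRNA miR-122 was at 4.42, 67.0, 86.5 and 5.80 CPM in LH and 27.8, 3.01, 6.85 and 30.4 CPM in FH, with no order by phase. Of the 6 neural markers, miR-124a was 0 in all 8 libraries, miR-153 was under 1 CPM, miR-9, miR-137 and miR-219 were at 0.11, 0.20 and -0.88, and miR-129b was the called member. The neural sum, 608 CPM in LH1, 246 CPM in LH4 and 83.1 to 133 CPM in the other 6 sows, was mainly miR-129b in LH1 and LH4.

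Several other families had no called member with all 8 sows in the fit. Of 7 let-7 family members, which restrain LIN28 and growth genes, 6 were positive and 0 were called, with a median of 0.23. let-7i was at 23967, 21256, 25970 and 17548 CPM in LH and 13324, 15781, 13369 and 13950 CPM in FH. It did not overlap between groups but had a log2 fold change of 0.65 (SE 0.17, edgeR adjusted p = 0.239), under the fold limit. For let-7f it was 0.70 (edgeR adjusted p = 0.24). The 9 tested members of the miR-17-92 cluster and its paralogues, known for promoting proliferation, had 7 positive values and 0 calls, with a median of 0.26 and a range from -0.93 for miR-19b to 0.63 for miR-363. All 6 entries of the miR-23, miR-27 and miR-24 clusters were negative, with a median of -0.69, and miR-23a at -0.92 (edgeR adjusted p = 0.24) came nearest to a call. Without LH4 the rule was passed by miR-23a (-1.26), miR-27a (-1.04) and both miR-24-1-5p and miR-24-2-5p (-1.06), and miR-23a also passed it without LH3, FH1 or FH4. The miR-24-1-5p and miR-24-2-5p entries had identical counts in the LH and FH libraries and are a single measurement, which this list counts under both names. Both tested miR-29 family members, which repress collagens, were negative, miR-29a at -0.54 and miR-29b at -0.71 (edgeR adjusted p = 0.315). Directions for these lists kept their sign under each scaling tried.

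The endothelial and hypoxia list had a median of 0.89 with miR-222 as its call, while miR-126-5p of endothelium was at 0.28 and the hypoxia miRNA miR-210 at -0.52. The miR-221-3p and miR-221-5p entries were identical, at 0.89 (edgeR adjusted p = 0.315). This list counts them under both names, and its median is their value. The miR-362 and miR-532 cluster had 3 positive members with 0 calls and a median of 0.52. miR-103 and miR-107, from introns of pantothenate kinase genes, were at 0.34 and 0.00, and miR-130a and miR-130b at -0.45 and 0.83. The miR-99a, miR-100 and miR-125 families had a median of -0.22 with 0 of 4 tested called, which turned to 0.01 by library size only. Likewise the HOX-locus miRNAs, with 0 of 5 called, had a median of -0.25 and one of 0.06 by library size only. In this list miR-10a-5p was at 462, 362, 1352 and 6653 CPM in LH, its highest value in LH4, and at 1539 to 4991 CPM in FH (-0.25, and called at -1.98 without LH4), and miR-196b-5p was at 264 CPM in LH4.

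**Figure D3:**
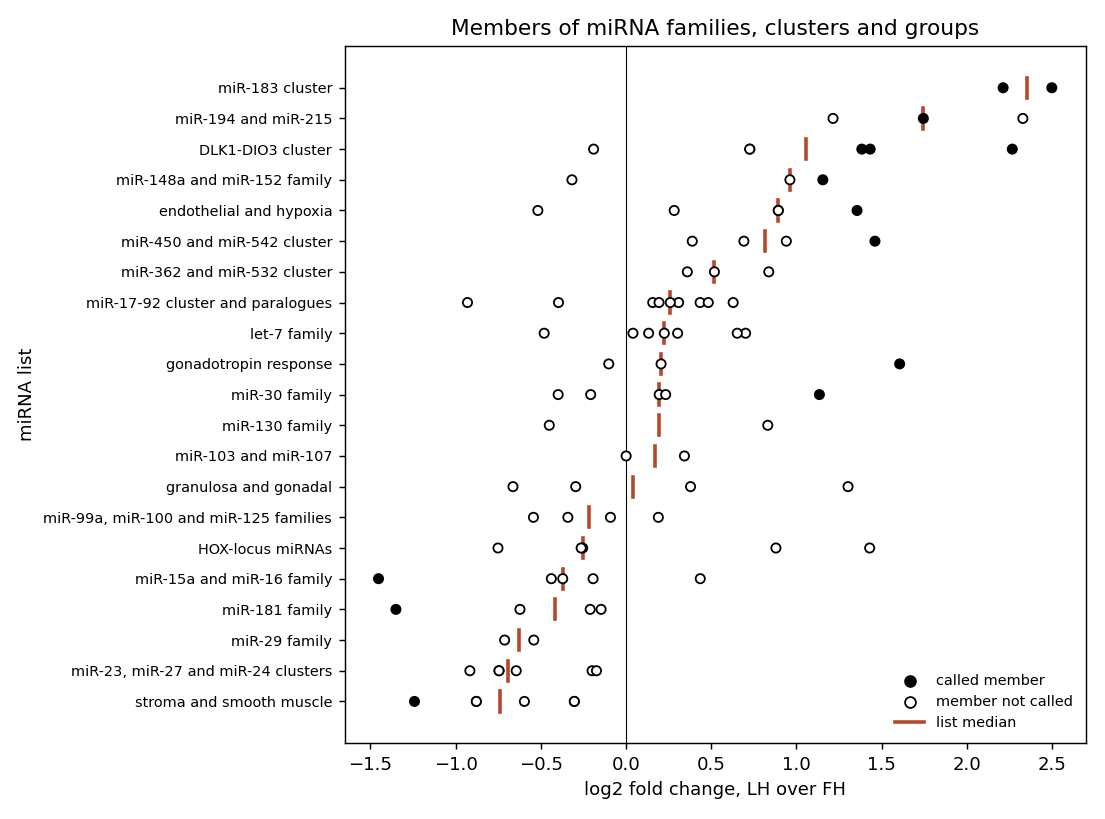
Log2 fold change, LH over FH, of each tested member of 21 miRNA families, clusters and groups, with filled circles for called members, open circles for the others and a bar at each list's median. The miR-183 cluster and the DLK1-DIO3 cluster hold more than 1 called member. Every tested member is below 0 in the stroma and smooth muscle list and the miR-23, miR-27 and miR-24 clusters. The same holds for the miR-181 and miR-29 families.

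Neighbouring miRNA genes were compared by their order in RefSeq's Sscrofa11.1 gene table, which is not the Sscrofa10.2 build of the study, so no coordinates are given. Of the 216 known miRNAs 199 matched, and 36 adjacent pairs were both tested. In 28 of the 36 pairs the log2 fold changes had the same sign, as in miR-143 and miR-145-5p, miR-450b-5p and miR-450a, and miR-222 and miR-221. Pairs that share a transcript can also differ in size and sign, as in miR-1 and miR-133a-5p, at 0.06 and -1.89, and in miR-30d and miR-30b-5p, at 1.14 and -0.21. Entries with identical or near identical counts count as pairs more than a single time. Among all tested known miRNAs 114 values were above 0 and 75 below, and the count of pairs was not set against unrelated pairs.

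Within the groups, sows took different positions over the called miRNAs. Of the 20 miRNAs called higher in LH, LH2 was the lowest LH sow for 13 and the highest for 0, while LH3 was the highest for 9 and LH1 for 7. FH1 was the highest FH sow for 12 of the 20. Among the 5 called lower, with miR-142-5p set aside, LH4 was the highest LH sow for 4 and FH2 the highest FH sow for 4. For these 5 FH1 was the lowest FH sow for 4. Hence LH2 and FH1 lay nearest to the other phase for many of the miRNAs higher in LH, and LH4 and FH1 for most of those lower in LH. Without LH2 there were 33 calls, 27 of them higher in LH, without LH3 21 calls, 8 higher and 13 lower, and without FH2 13 calls, 9 higher and 4 lower.

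**Figure D4:**
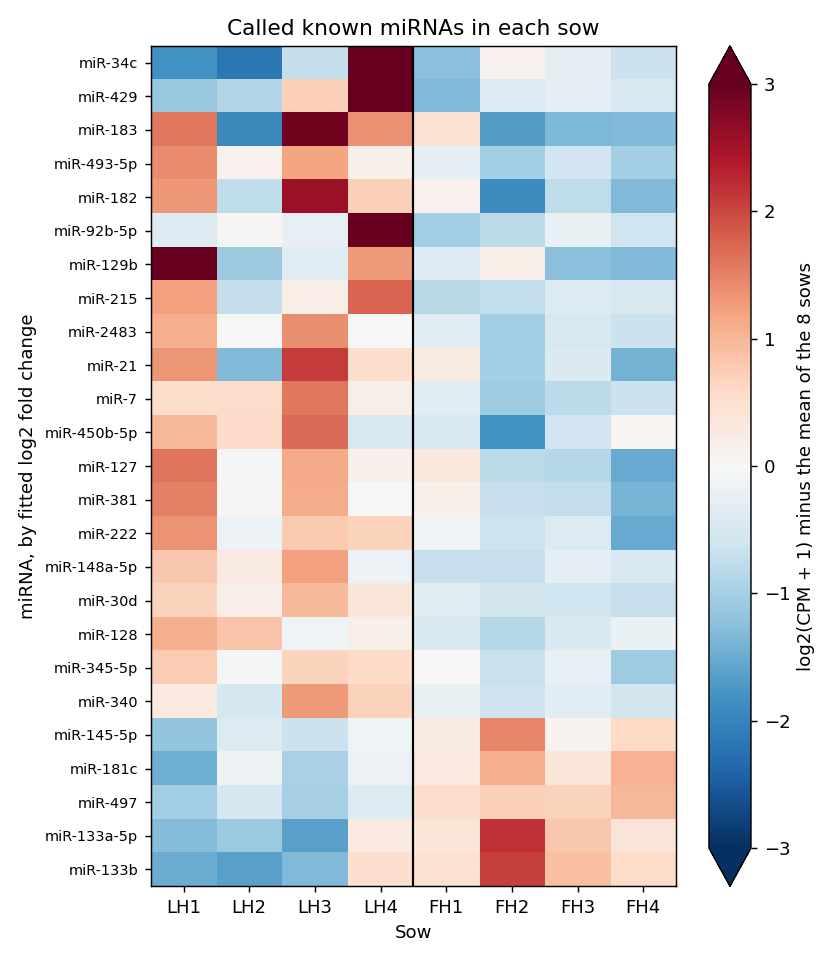
log2(CPM + 1) of 25 called known miRNAs in each sow, minus the mean of the 8 sows, with red above and blue below that mean and rows ordered by fitted log2 fold change. Colours stop at 3 and -3. LH2 is pale or blue in many rows that are red in LH1 and LH3, and the deep red cells of miR-34c, miR-429 and miR-92b-5p are all in LH4.

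Besides miR-143 and miR-21, the most abundant known miRNAs were miR-99a and miR-26a. miR-99a was at 104309 ± 50605 CPM in LH and 111072 ± 24396 CPM in FH (SD, n = 4), and miR-26a, a miRNA that restrains the cell cycle, was at 53692 ± 20085 and 73777 ± 20461 CPM. Neither was called, at log2 fold changes of -0.09 (SE 0.35) and -0.46 (SE 0.31). The sign of miR-99a turned with library size only (0.14). By mean level miR-21 was the most abundant known entry in LH, at 135182 ± 103666 CPM, and miR-143 in FH, at 227052 ± 93548 CPM, but the LH sows' ranges of miR-21 and miR-143 overlapped widely.

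The count filter of the test asks for enough counts in enough libraries and left 27 of the 216 known miRNAs aside. It thus also removed entries with high counts in few sows. Of these, 4 were 0 in all 8 libraries, 11 had a highest value under 1 CPM, 6 one of 1 to 10 CPM and 6 one above 10 CPM in at least 1 sow. The last were miR-99b, miR-29c, miR-361-3p, miR-196b, miR-885-5p and miR-664-5p. miR-29c was found only in FH4, at 432 CPM, and miR-885-5p was at 35.9 CPM in LH4 and no higher than 1.35 CPM elsewhere. No statement on a difference between the phases can be made for these 27 from the test.

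The low fecundity sows gave a comparison of the same phases in other animals, fitted on their own 8 libraries, with levels scaled separately. There 71 of 193 known miRNAs were called, 35 higher and 36 lower in LL than in FL, against 29.8% of all entries tested, and 45 passed an edgeR adjusted p of 0.05, against 17.7% of all entries. Of the 26 miRNAs called in LH against FH, 21 had the same direction in LL against FL, 15 of the 20 higher and 6 of the 6 lower. Among all 189 known miRNAs tested in both comparisons 142 had the same direction, so 21 of 26 was near the share of the whole. In LL against FL 14 of the 26 were called in the same direction. miR-30d was at 6542 to 11718 CPM in LL and 2386 to 4893 CPM in FL, a log2 fold change of 1.25 (SE 0.31, edgeR adjusted p = 0.0304). miR-21 was tightly grouped at 201529 to 244800 CPM in LL and 30597 to 50581 CPM in FL (2.41, SE 0.23, edgeR adjusted p = 0.00174), in contrast to its 25349 to 268118 CPM in LH. miR-497 was at -1.28, miR-145-5p at -2.35 and miR-181c at -2.50. Of the 5 with the opposite sign, miR-127 (-0.06), miR-148a-5p (-0.55) and miR-429 (-3.96) were not called in LL against FL. miR-34c and miR-92b-5p were called lower in LL, at -7.42 and -3.97. High values in FL2 and FL4 were seen for miR-34c, miR-429 and miR-92b-5p. miR-34c, for example, was at 8128 CPM in FL2, 15454 CPM in FL4, 77.1 to 87.9 CPM in the other FL sows and 20.2 to 52.2 CPM in LL.

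Over 183 known miRNAs tested in both pairs of groups, other than those 0 in some libraries and above 10 CPM in the rest, Spearman's rho between the log2 fold changes was 0.553 and Pearson's r 0.199, and 138 (75.4%) had the same sign. The points share transcripts and family members, and each comparison shares its scaling factors over all points, so these are descriptions. The medians of the DLK1-DIO3 list were 1.06 in high and 0.03 in low fecundity sows, those of the miR-450 and miR-542 cluster 0.82 and 2.16, with 4 of 4 called in the latter, and those of the miR-362 and miR-532 cluster 0.52 and 1.53.

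**Figure D5:**
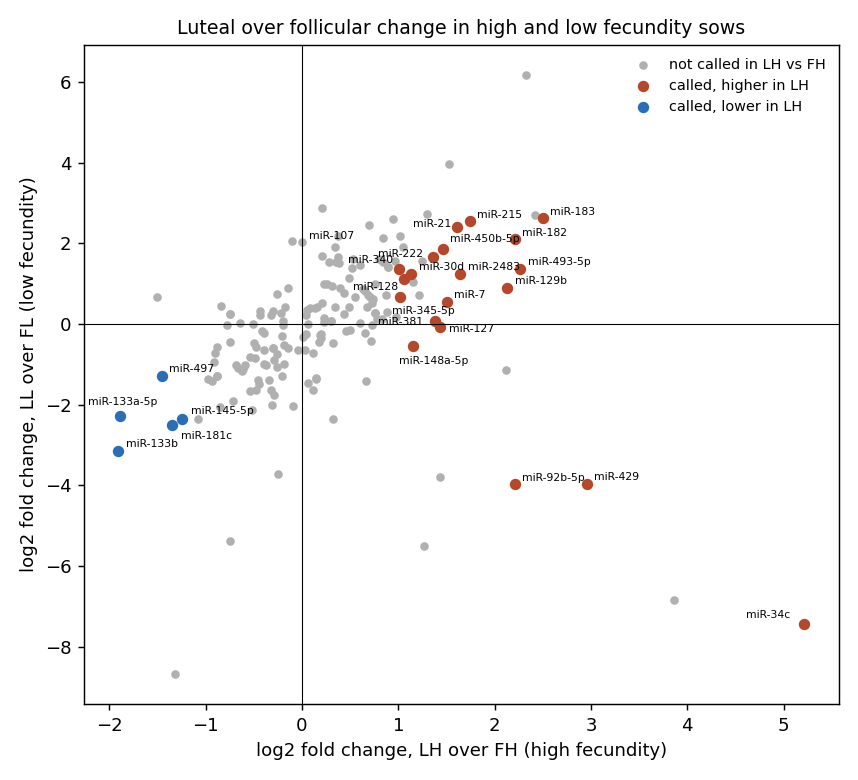
Log2 fold change, LH over FH, against log2 fold change, LL over FL, for 183 known miRNAs, with those called in LH against FH coloured and named and miR-107 also named. Most miRNAs, called or not, lie in the quadrants of equal sign. miR-34c, miR-429 and miR-92b-5p lie at the lower right. miR-107 stands near 2.03 on the low fecundity axis and at 0.00 on the other.

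Whether the phase difference itself differed between high and low fecundity was tested with an interaction term over all 16 libraries. In edgeR 0 of 200 known miRNAs passed an adjusted p of 0.05 (0% of all 445 entries), 34 had an unadjusted P under 0.05 (14.2% of all entries did), and DESeq2 called 25 by adjusted p. The smallest P belonged to miR-338, miR-107 and miR-34c. miR-107 was at 644, 268, 533.5 and 434 CPM in LH and 708, 378, 498 and 294 CPM in FH, but at 1810, 1299, 1691 and 1262 CPM in LL and 381, 340.1, 374 and 389.8 CPM in FL. High fecundity sows overlapped between phases while low fecundity sows did not, and the interaction was -1.95 on the log2 scale (SE 0.41, edgeR adjusted p = 0.0693). Its relative miR-103 had 0.34 in LH against FH and 1.92 in LL against FL. miR-338 was under 9 CPM in every sow and 0 in all 4 LL sows, with an edgeR adjusted p of 0.0693, and miR-34c (0.0813) and miR-92b-5p (0.0813) carried the high values of LH4, FL2 and FL4.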

How the data were processed

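The authors trimmed the small RNA reads, mapped them to Sscrofa10.2 with Bowtie2 2.1.0 and predicted further miRNAs with miRDeep. The deposited table holds whole-number counts of reads per entry and library, which the authors had not normalized, and how a read was assigned to an entry is not given in the sources used here. Entries with identical counts, such as both arms of miR-143, of miR-221, of miR-296 and of miR-7140, cannot be told apart. The same holds for miR-24-1-5p and miR-24-2-5p in the LH and FH libraries.

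The analysis used R 4.3.3 and edgeR 4.0.16 (TMM, filterByExpr at 10 and 15 counts, quasi-likelihood test) on the 8 libraries of each comparison, and on 16 for the interaction. The calling rule, by P and fold, is that of the study's methods, and adjusted p values are Benjamini-Hochberg over all entries tested. An exact two-sided permutation test on log2(CPM + 1) with 4 sows a group cannot go below 0.0286. Fold changes of entries at 0 depend on edgeR's prior count.

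The miRNAs, the 21 lists of families, clusters and groups and the 6 marker lists were chosen with earlier results of these data known. Named miRNAs were up to 12 called in each direction by smallest P, list members, the 5 most abundant and the 3 with the smallest interaction P. A few others were named after their values were seen. The steps were tested on simulated data. Alternatives were DESeq2 1.42.0, other scalings and filters, robust estimation, collapsed identical entries, a joint fit, a replicate block, parity or the share of reads passing cleaning as a covariate, and each sow left out.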

Additional observations from a re-analysis of the deposited data

Results flagged for a closer look

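In the 73 groups of 4 sows checked among the named miRNAs, 6 held a sow set apart from the other 3 by Dixon's test, where chance gives about 1 in 20. In LH these were LH4 for miR-34c (17828 CPM), for miR-92b-5p (322 CPM) and for miR-133b (32.7 CPM). In FH they were FH2 for miR-338 (8.51 CPM against 1.33 to 1.79 CPM), FH1 for miR-183 (36.9 CPM against 7.68 to 10.02 CPM) and FH1 for miR-429 (1.48 CPM, below the 3.49 to 4.07 CPM of the others).

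Outside the known miRNAs, the predicted entry NovelmiRNA-853 was listed at 0 in the 4 LH sows and at 9.65, 9.96, 11.8 and 13.6 CPM in the FH sows (edgeR adjusted p = 0.00364). It has the same division of zeros between LH and FH as miR-142-5p, at levels far below it.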

How the results depend on the processing

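The 26 calls of LH against FH became 15 with LH4 and FH2 left out together, an alternative chosen after seeing the data, of which 14 were among the 26, and ran from 13 (without FH2) to 33 (without LH2) when a single sow was left out. The other alternatives gave 20 to 36 calls, with the share of clean reads as a covariate giving 36, of which 14 were among the 26. The 2 calls by adjusted p became 4 in DESeq2, 1 with library size only, with TMM on known miRNAs, without a filter, with the clean read covariate, with all-or-none entries left out (chosen after seeing the data) and without LH4 and FH2, 0 when all 16 libraries were fitted together and 0 with the replicate block, and 1 to 2 when a sow was left out, where only miR-142-5p of the 2 was kept in each of the 8 exclusions. The cause of these changes was not tested. For the interaction DESeq2 called 25 and the fit without a filter 8 in place of 0, while library size only, the block and leaving out a replicate number gave 0. The 71 calls of LL against FL ran from 55 to 84.

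Same-numbered LH and FH sows were different animals, and their deviations correlated at 0.395, 0.301, -0.0103 and 0.343, so the number was not taken as a pairing. With the replicate block 23 miRNAs were called, 14 higher and 9 lower, 16 of them among the 26, and miR-34c was at -0.019. Signs also reversed for miR-34c at -0.75 without LH4 and FH2 and over the range of -1.12 to 5.67 by sow, and for miR-99a at 0.14 with library size only, 0.033 with the clean read covariate and -0.45 to 0.003 by sow. miR-107, near 0 throughout, was at -0.11 in DESeq2, with median-of-ratios factors and with at least 10 counts in 4 libraries, -0.046 with TMM on known miRNAs, -0.008 with collapsed entries, -0.042 in the fit of 16 libraries, -0.058 without LH4 and FH2 and -0.27 to 0.28 by sow.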
